A study of Mus musculus with 6 samples.

Results

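T cells were taken here as barcodes of single-cell RNA profiles from mouse shin muscle, before and after a toxin injury, that carried at least 2 UMIs (unique molecular identifiers, each marking a counted transcript molecule) of Cd3e, Cd3d and Cd3g together. These 3 genes encode chains of the CD3 complex, which carries the signal of the T cell receptor into the cell. Barcodes with any UMI of the B cell gene Cd79a, the macrophage gene Csf1r or the stromal gene Pdgfra, or with more than 1 UMI of the endothelial gene Pecam1, were left out. The rule found 511 T cells among 64032 barcodes with at least 500 UMIs, at least 200 genes and at most 10% mitochondrial UMIs, called kept barcodes below.

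The libraries held living mononucleated cells of the tibialis anterior, sorted by exclusion of propidium iodide from wild-type mice. The groups were uninjured muscle (day 0) and muscle on day 1 and day 3 after injury with cardiotoxin, a snake venom toxin that destroys muscle fibres, each sampled at zeitgeber time 16 (ZT16) and ZT4, hours counted from lights on. Each of these 6 groups was 1 library. No difference between them therefore has a replicate check, and no test was run. The sources used here give no sex, age, strain or number of animals per library. Intervals are exact and cover counting error only, not the variation between animals.

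T cells recognise antigen through a receptor made of either an alpha and a beta chain or a gamma and a delta chain. Alpha-beta cells include CD4+ helper and regulatory cells and CD8+ cytotoxic cells, and naive ones circulate through lymph nodes by means of receptors such as the one encoded by Ccr7. Gamma-delta T cells that settle in tissues are known as early sources of interleukin 17, and in injured muscle regulatory and gamma-delta T cells are known to support repair.

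The number of T cells per library was 36 and 77 before injury (ZT16 and ZT4), 66 and 38 on day 1, and 174 and 120 on day 3. They made up 0.290% (0.203 to 0.402) and 0.655% (0.517 to 0.818) of kept barcodes on day 0, 0.588% (0.455 to 0.747) and 0.346% (0.245 to 0.475) on day 1, and 2.13% (1.83 to 2.47) and 1.26% (1.05 to 1.51) on day 3. Both day 3 libraries lay above the other 4, while days 0 and 1 overlapped. Among barcodes with a UMI of Ptprc, which encodes the leukocyte antigen CD45, the order was different. There T cells made up 3.36% and 4.88% before injury, 0.633% and 0.393% on day 1, and 2.39% and 1.43% on day 3. The number of such leukocyte barcodes was 981 and 1455 before injury, 8840 and 9156 on day 1, and 6406 and 7277 on day 3. These are shares of the barcodes captured, and a larger number of T cells in the muscle cannot be told apart from a smaller number of other cells.

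**Figure D1:**
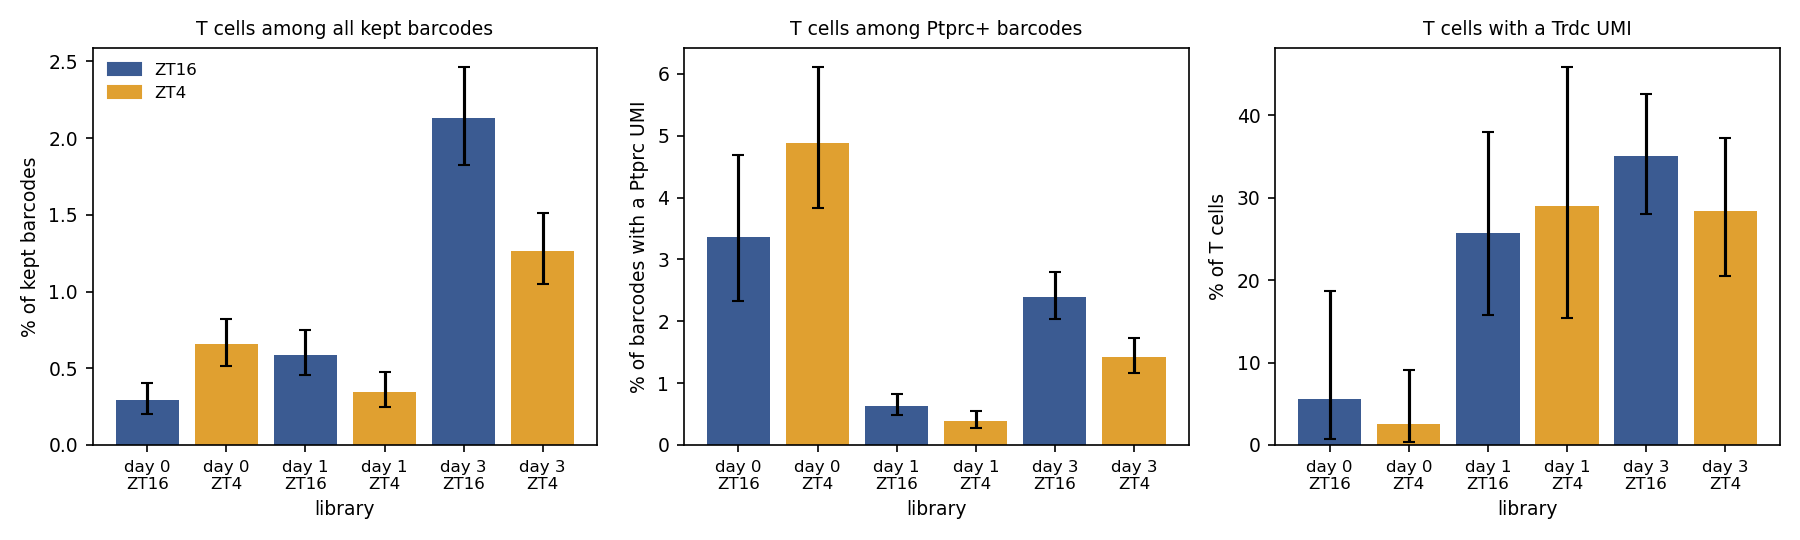
T cells as a percentage of kept barcodes (left), T cells with a Ptprc UMI as a percentage of barcodes with a Ptprc UMI (middle), and T cells with a Trdc UMI as a percentage of T cells (right), in each of the 6 libraries; bars are single libraries and lines are exact binomial intervals for counting error at 95%. The share of kept barcodes was highest on day 3 (2.13% and 1.26%), the share of Ptprc barcodes on day 0 (3.36% and 4.88%), and the Trdc share was 25.8% or more in the 4 libraries after injury and 5.56% or less on day 0.

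The T cells were selected on their UMIs of Cd3e, Cd3d and Cd3g and of the excluded genes, so values of those genes are no finding. Receptor genes that the rule did not use were measured in the same cells. Trac, the constant region of the alpha chain, reached 212 to 416 CPM (UMIs of a gene scaled to the summed UMIs of the cells) in the T cells of the 6 libraries and 0.313 to 1.47 CPM in all other kept barcodes. Trbc2, a constant region of the beta chain, reached 976 to 1453 CPM in T cells and 0.26 to 3.21 CPM in the others. Bcl11b, a transcription factor of the T cell lineage, and Lck, the kinase that starts receptor signalling, were at 108 to 259 CPM and 154 to 259 CPM in T cells, against at most 0.829 and 1.96 CPM elsewhere. Thy1 separated the cells poorly, with a ratio as low as 1.13 in 1 library. Of the 511 T cells, 461 had a UMI of Trbc2, 291 of Lck, 287 of Trac and 453 of Ptprc. The median T cell had 11 UMIs of the 3 Cd3 genes, and the range was 2 to 77. T cells held 3727.5 to 5758 UMIs at the median of each library.

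The edge of the rule was thinnest on day 1. The 23 barcodes with exactly 2 Cd3 UMIs held Trac in 3 cases and Trbc2 in 10. Just outside, 151 barcodes had 1 Cd3 UMI, 116 of them on day 1, and Trac was found in 2 and Trbc2 in 16 of the 151. In 11 of the 104 day 1 T cells, against 2 of the 113 day 0 T cells, no receptor constant gene was seen. The exclusions removed 92 of 603 barcodes that passed on Cd3, 61 of them with a Csf1r UMI.

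Part of the day 0 members carried genes of another lymphocyte type. Il1rl1 (the receptor for interleukin 33), Arg1 (arginase), Il13 and Il5 are genes shared by group 2 innate lymphoid cells and some T cells. On day 0 a UMI of at least 1 of these was present in 14 of 36 members at ZT16 and 15 of 77 at ZT4. It was present in 2 of 66 and 3 of 38 on day 1 and in 7 of 174 and 11 of 120 on day 3. On day 0, 5 of the 29 barcodes with such a UMI had Trac, against 66 of the 84 without, and 26 had Trbc2, against 81. Beta chain transcripts were thus common in both, and alpha chain transcripts were seen in few of the 29. The surface receptor genes Cd5 and Cd6 were each found in 3 of the 29, and in 38 and 30 of the 84. The 29 may not be T cells, which was not tested.

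The same 29 barcodes stood apart in genes that did not define them. Ltb4r1, which encodes a leukotriene B4 receptor, was found in 29 of them and in 9 of the other 84. Gata3, the transcription factor of type 2 lymphocytes, was found in 27 and 23, Klrg1 in 19 and 8, Csf2 (the cytokine GM-CSF) in 18 and 2, and Ccdc184 in 21 and 1. The genes of naive T cells showed the reverse, with Lef1 in 0 and 59, Ccr7 in 1 and 58, and Cd8b1 in 0 and 35. The rule therefore took in a group of day 0 barcodes led by Ltb4r1, Gata3 and Csf2, and each day comparison below is also given without the barcodes that have one of the 4 genes, an alternative chosen after seeing the data.

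**Figure D2:**
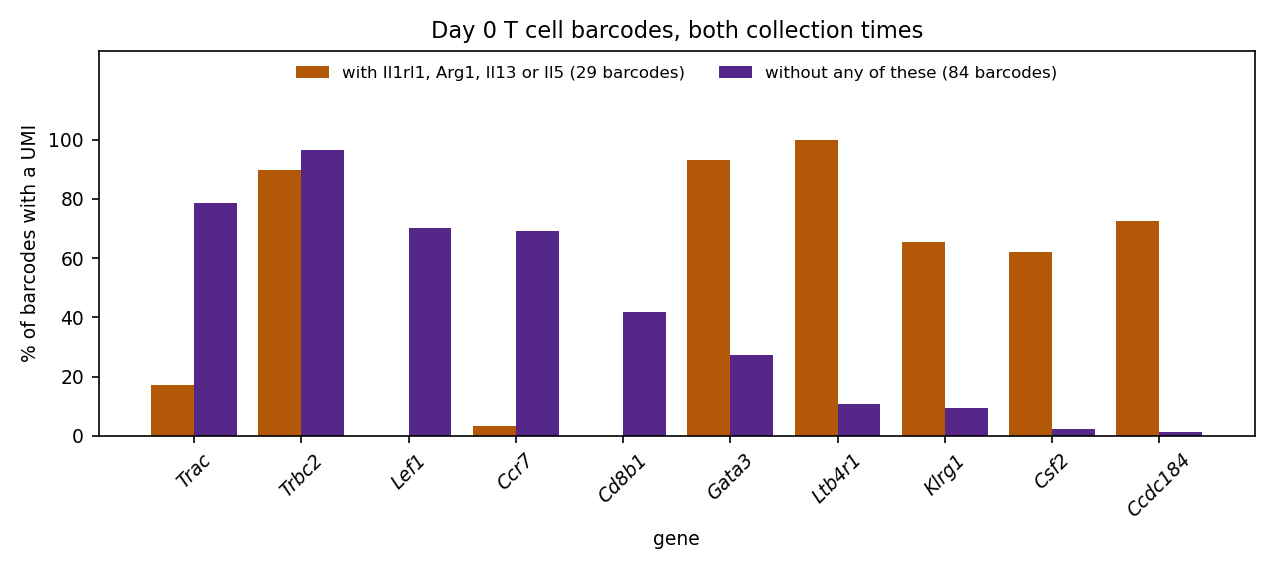
Percentage of day 0 barcodes under the T cell rule (both collection times) with at least 1 UMI of each gene. Bars are shares of the 29 barcodes with a UMI of Il1rl1, Arg1, Il13 or Il5, which may not be T cells, and of the 84 without. Trbc2 was found in most barcodes of both (26 of 29 and 81 of 84), whereas Trac, Lef1, Ccr7 and Cd8b1 were low in the first and Gata3, Ltb4r1, Klrg1, Csf2 and Ccdc184 were low in the second.

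T cells with a transcript of the delta chain were rare before injury and frequent after it. Trdc, the constant region of the delta chain (ENSMUSG00000104876, at chr14:54142851-54148868 on the plus strand of GRCm38), was seen in 2 of 36 and 2 of 77 T cells on day 0, which is 5.56% (0.680 to 18.7) and 2.60% (0.316 to 9.07). On day 1 it was seen in 17 of 66 and 11 of 38, which is 25.8% (15.8 to 38.0) and 28.9% (15.4 to 45.9), and on day 3 in 61 of 174 and 34 of 120, which is 35.1% (28.0 to 42.6) and 28.3% (20.5 to 37.3). Both libraries of each day after injury were above both of day 0. Days 1 and 3 overlapped in these shares. The 2 day 0 cells with Trdc at ZT16 each also had Arg1, Gata3 and Csf2, genes of the day 0 group above.

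Depth and free RNA were checked for this share. After thinning every T cell to 2000 UMIs the shares were 0% and 1.32% before injury, 27.0% and 27.8% on day 1, and 31.8% and 27.4% on day 3, where 0 of 35 cells allows up to 8.57%. Barcodes marked as macrophages, with at least 2 Csf1r UMIs and no Cd3, had Trdc in 0 to 0.177% of cases, at a median depth of 7672.5 to 13752 UMIs. T cells had a median of 3727.5 to 5758 UMIs. Per 1000 kept barcodes, T cells with Trdc numbered 0.161 and 0.170 before injury, 1.51 and 1.00 on day 1, and 7.46 and 3.58 on day 3.

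Cells with Trdc shared further genes that did not choose them, shown here with both collection times of a day summed. Cd163l1, which encodes the scavenger receptor family member SCART1 known from gamma-delta T cells, was present in 26 of 28 such cells on day 1 and 72 of 95 on day 3, against 2 of 43 and 0 of 97 T cells with neither Trdc, Cd4 nor Cd8. The gamma chain constant gene Tcrg-C1 was present in 26 and 81 and the delta variable gene Trdv4 in 18 and 53. Blk, a Src family kinase gene active in interleukin 17 producing gamma-delta cells, was present in 21 and 67. Within the Trdc cells these genes were therefore common on both days.

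Sox13, a transcription factor gene of interleukin 17 producing gamma-delta cells, was present in 10 of the 28 Trdc cells on day 1 and in 20 of the 95 on day 3. It was not seen in any T cell without Trdc on either day. Il17a, the cytokine itself, was present in 4 of 28 and 16 of 95, against 0 and 1 T cells without Trdc. The chemokine receptor gene Cxcr6, linked to tissue retention, was present in 26 and 81 Trdc cells. T cells with neither Trdc, Cd4 nor Cd8 had it in 8 of 43 and 43 of 97. On day 3 it was also in 29 of 56 T cells with Cd8 and 20 of 45 with Cd4, so it was common outside the Trdc cells. Trac was present in 6 of 28 and 14 of 95, so most Trdc cells showed no alpha chain transcript, while the beta chain gene Trbc2 was present in 26 of 28 and 78 of 95 and Trbc1 in 17 and 60. The sequence counting is from the 3' end of transcripts, and the Trac and Trdc loci lie close together on chromosome 14.

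CD8 and CD4 transcripts divided the rest. T cells with Cd8a or Cd8b1 and no Trdc made up 13.9% and 39.0% before injury, 18.2% and 15.8% on day 1, and 24.1% and 11.7% on day 3. T cells with Cd4 and neither Trdc nor Cd8 made up 16.7% and 18.2%, 10.6% and 21.1%, and 15.5% and 15%. The order of the days in the Cd8 share was not the same at ZT16 and ZT4, and thinned to 2000 UMIs the Cd8 shares were 9.73% to 34.2%, with at most 0.233% in macrophage-marked barcodes. Cd4 is also expressed by macrophages and is captured poorly: 2.94% and 3.97% of macrophage-marked barcodes had it before injury, 0.155% and 0.0529% on day 1, and 4.09% and 4.78% on day 3. Thinned to 2000 UMIs the T cell shares were 6.35% to 14.3%.

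Foxp3, the transcription factor of regulatory T cells, was seen in 1 and 4 T cells before injury, 3 and 3 on day 1, and 12 and 13 on day 3. These are shares of 2.78% and 5.19%, 4.55% and 7.89%, and 6.90% and 10.8%, whose intervals overlap from day to day at each collection time. Thinned to 2000 UMIs they were 2.86% and 5.26%, 4.76% and 8.33%, and 4.62% and 7.96%. Macrophage-marked barcodes had Foxp3 in 0 to 0.0443% of cases.

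**Figure D3:**
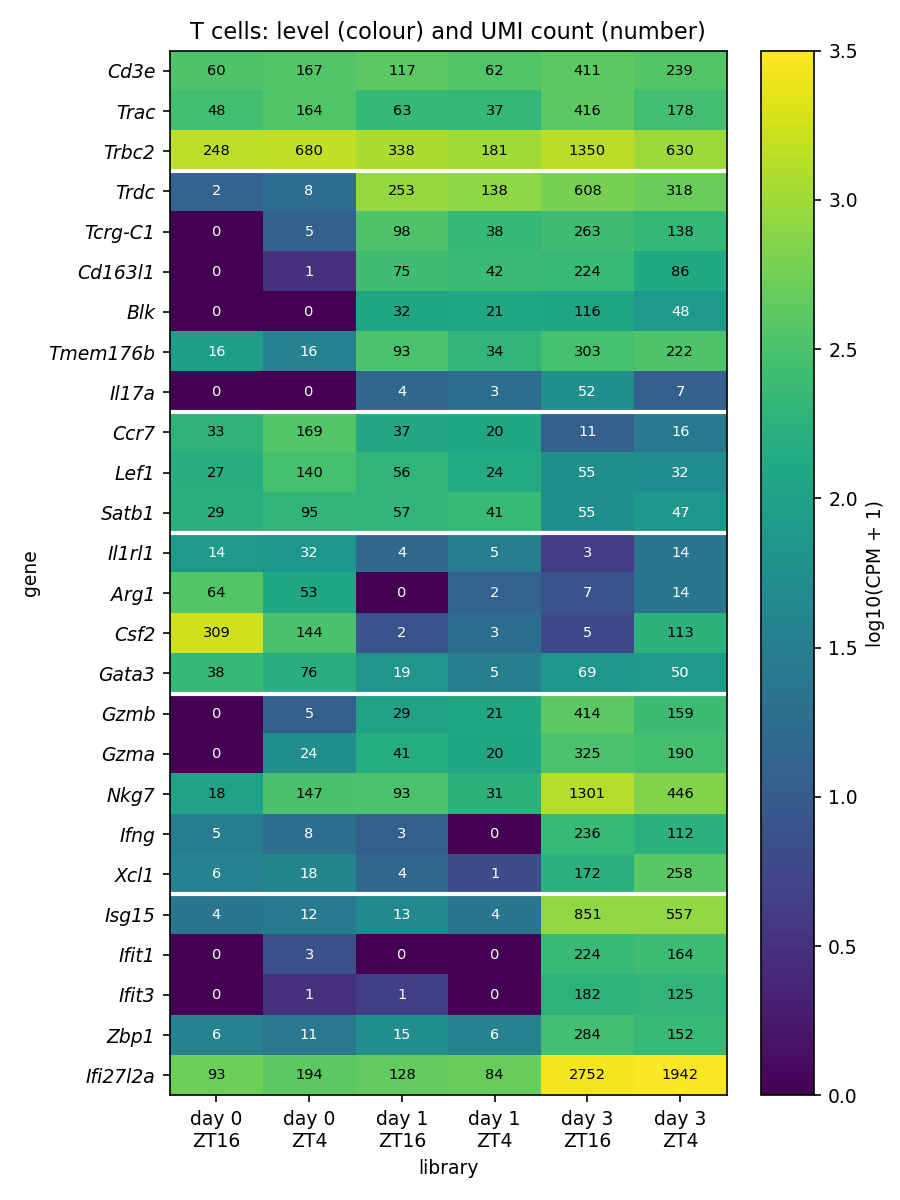
Level in summed T cells of each library, as log10 of CPM plus 1 (colour), with the UMI count printed in each cell, for genes of the receptor, gamma-delta cells, circulation, the day 0 group, cytotoxicity and the interferon response (white lines divide these groups). Trdc had 2 and 8 UMIs on day 0 and 138 or more in each library after injury, and Isg15 was at 851 and 557 UMIs on day 3 and at 13 or fewer before.

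The comparison of day 1 with day 0 asks what T cells express soon after the injury. UMIs were summed over the T cells of a library and divided by their total, and a gene was compared where both days together had at least 30 UMIs at each collection time. In what follows a gene rose or fell when it differed at least 2-fold the same way at ZT16 and at ZT4. Of 1867 genes compared, 88 rose (4.71%) and 37 fell (1.98%) on day 1 relative to day 0, 6.70% in either direction. The median gene was at log2 0.06 at ZT16 and 0.20 at ZT4. Without the barcodes that have Il1rl1, Arg1, Il13 or Il5 the counts were 93 and 31. In summed cells, fewer cells that express a gene and less RNA per cell cannot be told apart.

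Among the genes named by rule, which were at least as high in T cells as in all other barcodes of the higher day, gamma-delta genes ranked first by how far their intervals lay above 0. Trdc had 253 and 138 UMIs on day 1, against 2 and 8 on day 0 (ZT16 and ZT4), which is 887 and 791 CPM against 11.4 and 17.1 CPM. The log2 fold was 5.96 (4.41 to 9.33) at ZT16 and 5.45 (4.51 to 6.77) at ZT4, and the day 1 libraries lay far above both day 0 libraries. Cd163l1 (chr7:140218267-140231145, plus strand) had 75 and 42 UMIs on day 1, against 0 and 1 on day 0, so it was at least 15.4-fold higher at ZT16, taking 3 UMIs as the floor in a library with none, and log2 6.25 (4.26 to 12.15) higher at ZT4. Tcrg-C1 had 98 and 38 UMIs, against 0 and 5, and was at least 20.1-fold higher at ZT16 and log2 4.23 (3.00 to 6.05) higher at ZT4. Of the 20 genes of a type 17 and gamma-delta list, 9 could be compared, 5 rose (Trdc, Cd163l1, Tmem176a, Tmem176b and Serpinb1a) and 0 fell. The median of the 9 was 1.48 and 2.29. In T cells without Trdc, 0 of 5 compared genes of this list rose. Trdc is 0 there by the choice of cells, and Cd163l1 had 5 and 0 UMIs there on day 1, too few to compare. That count therefore cannot show where the rise came from.

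Among 15 compared genes of receptor signalling 0 rose or fell, beside 6.70% of all genes compared. So few genes cannot set that list apart from all genes by this count. Of the activation list 1 of 8 compared genes rose (Icos) and 1 fell (Cd69). Icos, an inducible costimulatory receptor, had 57 and 52 UMIs on day 1, against 8 and 41 on day 0, a log2 fold of 2.05 (1.05 to 3.41) and 1.76 (1.15 to 2.39). Ctla4, an inhibitory receptor and the only 1 of 9 genes of that list that could be compared, had 42 and 27 UMIs against 6 and 11, although 23 of the 27 were in 1 cell. Klrk1, which encodes the activating receptor NKG2D, had 59 and 25 UMIs against 9 and 8, a log2 fold of 1.94 (0.99 to 3.21) and 3.01 (1.87 to 4.43). Ikzf3, a lymphocyte transcription factor, had 29 and 23 UMIs against 2 and 11. Cxcr6 rose as well, by 1.28 at each time, with 128 and 58 UMIs against 32 and 64. Among the genes named by rule, G0s2, Lars2, Gm42418 and Gm26917 rose too, and G0s2 is also a neutrophil gene, with up to 89 of its 105 UMIs at ZT4 in 1 barcode.

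Among the genes named by the same rule, Csf2 and Arg1 of the day 0 group ranked first below 0. Csf2 (chr11:54247271-54249667, minus strand) had 2 and 3 UMIs on day 1, each in 1 cell, against 309 and 144 on day 0 in 11 and 9 cells, a log2 fold of -7.66 (-11.03 to -6.11) at ZT16 and -3.94 (-6.46 to -2.58) at ZT4. Arg1 had 0 and 2 UMIs in T cells on day 1, against 64 and 53 on day 0, so it was at least 34.7-fold lower at ZT16 and -3.00 (-6.39 to -1.38) on the log2 scale at ZT4. In all other barcodes Arg1 was at 545 and 725 CPM on day 1, against 0.872 and 1.58 CPM on day 0, the opposite order. Gata3 had 19 and 5 UMIs on day 1, against 38 and 76 on day 0, with log2 folds of -1.68 and -2.37. Tnfsf8, which encodes the ligand of CD30, had 4 and 6 UMIs against 31 and 63.

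Without the barcodes that have Il1rl1, Arg1, Il13 or Il5, 0 of 2 compared genes of the T cell cytokine list fell. With those barcodes 2 of 6 fell (Csf2 and Tnfsf8). Without them Csf2 had 2 UMIs on day 0 and 0 on day 1, and Tnfsf8 had 7 and 6. Both were then too few to compare, so the count of 0 says nothing about these 2 genes. Id2, a repressor of DNA-binding factors that innate lymphoid cells depend on, fell with those barcodes. It was at 0.14 without those barcodes at its smaller fold. Cd69, an early activation and retention receptor, had 31 and 24 UMIs on day 1, against 107 and 148 on day 0, log2 folds of -2.47 (-3.12 to -1.90) and -1.18 (-1.89 to -0.57). Dnajb1, Hspa1a and Hspa1b of the heat shock response, which tissue dissociation is known to induce, fell as well. Hspa1a was at 0 and 5.73 CPM in T cells on day 1, against 320 and 639 CPM on day 0, and in all other barcodes at 60 and 43.4 CPM against 790 and 766 CPM. The part of dissociation in these values was not tested. Inpp4b and Gm47283 completed the named genes that fell.

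Among 10 compared genes of circulating naive cells 0 rose or fell by day 1, beside 6.70% of all genes compared. Lef1, a factor of naive and memory T cells, had 56 and 24 UMIs on day 1, against 27 and 140 on day 0, with log2 folds of 0.34 and -1.10. Of the cytotoxic list 4 of 8 compared genes rose: Gzma, Ccl3, Ccl4 and Klrk1. Gzma rested on 2 and 1 cells on day 1. In all other barcodes the cytotoxic list summed to 1549 and 1781 CPM on day 1, against 113 and 270 CPM on day 0. The part of other cells' RNA in these genes was not tested. The interferon list had 0 of 8 compared genes that rose or fell, again beside 6.70% of all genes.

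Genes of other cell types moved with day 1. The 12 neutrophil markers summed to 8184 and 5419 CPM in T cells on day 1, against 28.5 and 29.9 CPM on day 0, and to 9068 and 14881 CPM, against 508 and 349 CPM, in all other barcodes. All 5 compared neutrophil markers rose, S100a8 with 651 and 345 UMIs in 14 and 7 T cells against 0 and 0. With members removed that had at least 10 UMIs of S100a8, S100a9 and MHC class II genes together, an alternative chosen after seeing the data, 38 genes rose in place of 88. Of the type 17 and gamma-delta list 5 of 9 rose there, which were Trdc, Cd163l1, Tmem176a, Tmem176b and Serpinb1a as before. Muscle fibre genes moved the other way, the 14 markers summing to 98.2 and 327 CPM in T cells on day 1, against 8913 and 16744 CPM on day 0, with all 10 compared markers down. Macrophage markers summed to 743 and 2253 CPM, against 177 and 301 CPM, and 3 of 4 compared rose. Free RNA estimated from markers of other cell types was 5.43% and 16.2% on day 1, against 1.45% and 6.27% on day 0. With that share of the other barcodes' profile subtracted, 50 genes rose in place of 88.

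The comparison of day 3 with day 0 asks what T cells express once repair is under way. Of 3689 genes compared, 209 rose (5.67%) and 52 fell (1.41%) on day 3 relative to day 0, 7.08% in either direction. Scaling by the median of ratios in place of the total lowered all log2 values of this comparison by 0.18 at ZT16 and 0.31 at ZT4 and left 134 genes that rose and 80 that fell. Without the barcodes that have Il1rl1, Arg1, Il13 or Il5 the counts were 229 and 42. Genes of the interferon, cytotoxic, gamma-delta and cell cycle lists were among those that rose, genes of circulation were among those that fell, and markers of other cell types moved with them, as described with each list.

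Interferon-stimulated genes encode antiviral and signalling proteins that cells make after sensing type I or type II interferon. All 23 members of the list could be compared, and 21 rose. The median of the 23 was 2.48 at ZT16, or 2.33 with genes that had 0 UMIs on day 0 at their lower bound, and 2.71 at ZT4, beside 0.13 and 0.27 over all genes. Slfn1 and Ly6e were the members that did not pass. With median of ratios scaling 19 of 23 rose, and without the barcodes that have Il1rl1, Arg1, Il13 or Il5 it was 19 of 21.

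Isg15 encodes a ubiquitin-like protein that is joined to other proteins in infected cells. It had 851 and 557 UMIs in T cells on day 3, against 4 and 12 on day 0, which is 852 and 863 CPM against 22.8 and 25.6 CPM. The log2 fold was 5.05 (3.86 to 7.10) at ZT16 and 5.02 (4.26 to 6.03) at ZT4, and day 1 lay with day 0 at 45.6 and 22.9 CPM. It was present in 98 of 174 and 62 of 120 T cells on day 3, and in 3 of 36 and 9 of 77 on day 0. Thinned to 2000 UMIs these were 43.9% and 46.0%, against 5.71% and 2.63%. Macrophage-marked barcodes had it in 83.4% and 70.5% on day 3, against 19.5% and 18.5% on day 0. They therefore gave no background free of the gene, and no other cell type was used for this.

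Ifit1 and Ifit3 encode proteins that bind viral RNA or assist in it. Ifit1 (chr19:34640871-34650009, plus strand) had 224 and 164 UMIs on day 3, in 50 and 30 T cells, against 0 and 3 on day 0. It was at least 13.1-fold higher at ZT16 and log2 5.09 (3.74 to 7.60) higher at ZT4. Ifit3 had 182 and 125 UMIs against 0 and 1, at least 10.6-fold higher at ZT16 and log2 5.92 (4.0 to 11.82) higher at ZT4. On day 1 both were at or near 0, with 0 and 0 UMIs of Ifit1 and 1 and 0 of Ifit3. Ifi27l2a had 2752 and 1942 UMIs on day 3, against 93 and 194 on day 0, and Zbp1, a sensor of nucleic acids, had 284 and 152 against 6 and 11. Iigp1, an interferon-induced GTPase, had 90 and 46 against 0 and 3.

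The same genes were also high in the rest of the muscle. Summed over the list, T cells had 9083 and 8684 CPM on day 3 and all other barcodes 7858 and 5531 CPM, against 2153 and 1727 CPM in T cells and 2327 and 2660 CPM in the others on day 0. Macrophage markers rose in T cells in 3 of 4 compared cases, with medians of 2.99 at ZT16 and 1.18 at ZT4. The 14 of them summed to 973 and 705 CPM in T cells on day 3, against 177 and 301 CPM on day 0, with 13 and 13 of the 14 seen on day 3, against 7 and 10. Their part in the interferon values was not tested. The free RNA estimated from other cell types' markers was 3.01% and 2.75% on day 3 and 1.45% and 6.27% on day 0. After that share of the other barcodes' profile was subtracted, 19 of 21 compared interferon genes rose.

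Interferon acts through a DNA element with 2 copies of GAAA set 2 bases apart, bound by interferon-activated STAT and IRF factors. The start regions of Isg15, Ifit1 and Ifit3 are shown because they are interferon genes with a large rise on day 3 that hold this element. Genes without a match were passed over, so these examples do not show how common the element is. The sequences are RefSeq promoters of GRCm38.p6, 5′ to 3′ on the strand of the gene, at chr4:156200819-156200958 (minus strand), chr19:34640749-34640888 (plus strand) and chr19:34583389-34583528 (plus strand). Capitals mark a match on either strand, and overlapping matches run together.
Isg15: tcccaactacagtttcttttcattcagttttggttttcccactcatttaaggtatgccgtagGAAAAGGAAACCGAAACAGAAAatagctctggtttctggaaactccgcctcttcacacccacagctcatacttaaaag
Ifit1: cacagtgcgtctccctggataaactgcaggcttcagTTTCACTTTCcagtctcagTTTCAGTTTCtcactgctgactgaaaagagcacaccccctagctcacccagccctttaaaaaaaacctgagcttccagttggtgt
Ifit3: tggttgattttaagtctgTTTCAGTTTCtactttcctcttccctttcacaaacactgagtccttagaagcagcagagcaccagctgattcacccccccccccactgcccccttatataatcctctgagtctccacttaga
Isg15 held 3 overlapping matches, the nearest ending 57 bases before the start of the gene, and Ifit1 held 2. In the 250 bases before the start, at least 1 match was found in 936 of 27025 promoters (3.46%). Of the interferon list 16 of 23 members had a promoter in the table, and 10 held a match (62.5%): Isg15, Ifit1, Ifit3, Ifit3b, Rsad2, Bst2, Ifi203, Ifi206, Slfn5 and Slfn8. Of the cytotoxic list 3 of 18 and of the type 17 and gamma-delta list 0 of 14 promoters held a match. A match is a description of these letters only.

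The interferon list was not equally high in all T cells on day 3. T cells with Cd4 summed to 20429 and 18343 CPM, T cells with Cd8 to 6616 and 14074 CPM, and T cells with Trdc to 4500 and 2027 CPM. T cells with none of these summed to 11107 and 8740 CPM. On days 0 and 1 the same gates ranged from 761 to 4059 CPM. The Trdc cells were lowest and the Cd4 cells highest in both day 3 libraries. Isg15 followed the same order, at 1981 and 2043 CPM with Cd4, 703 and 1151 CPM with Cd8, and 388 and 182 CPM with Trdc. Macrophages express Cd4 and interferon genes alike, and 4.09% and 4.78% of macrophage-marked barcodes had Cd4, so their part in the Cd4 value was not tested.

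**Figure D4:**
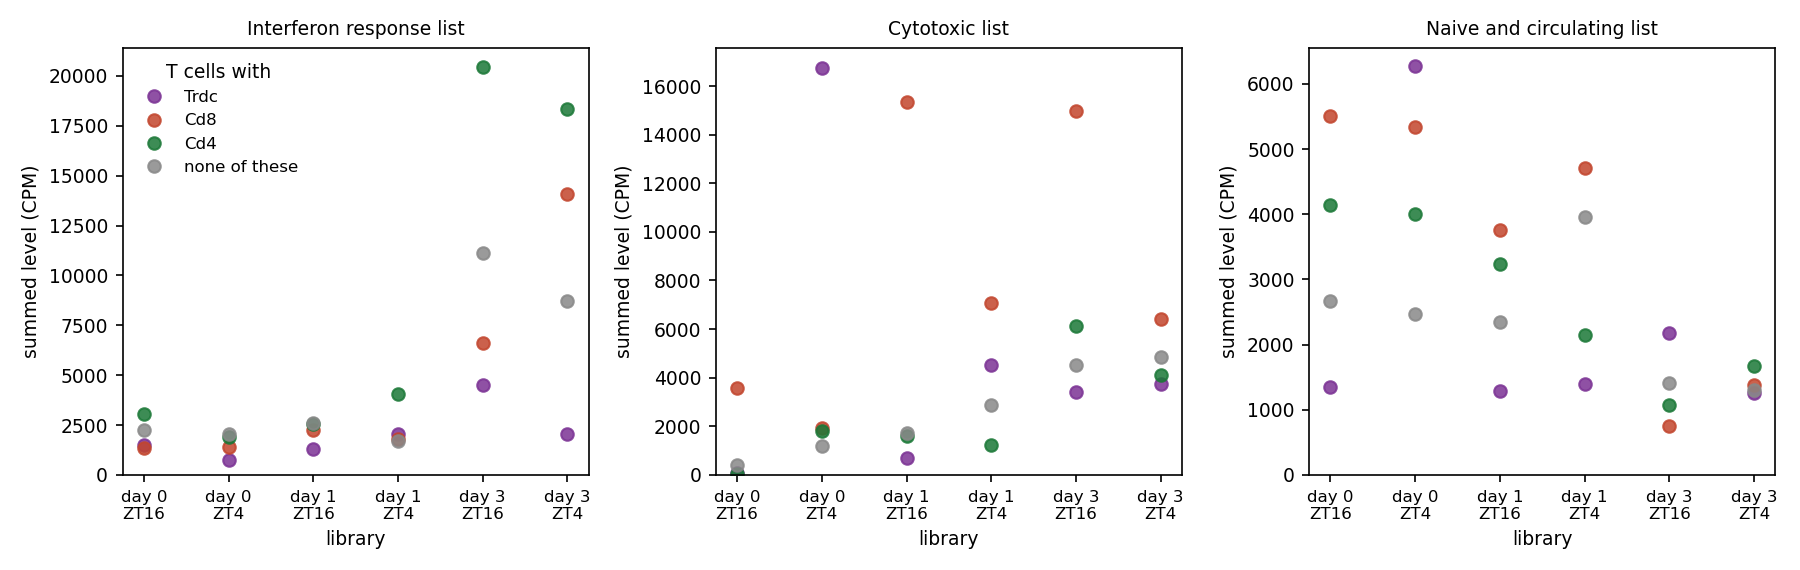
Summed level (CPM) of the interferon response, cytotoxic and naive lists in T cells with Trdc, with Cd8, with Cd4 or with none of these, in each library; each point is 1 sum over the cells of 1 gate, from 2 cells (Trdc on day 0) to 61 cells. On day 3 the interferon sum was highest with Cd4 (20429 and 18343) and lowest with Trdc (4500 and 2027). The naive sum was then at most 2180, reached with Trdc at ZT16, where the 2 cells of day 0 were at 1344.

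Cytotoxic effector genes rose on day 3. Of the 22 genes of the list 14 could be compared, 11 rose and 0 fell, with medians of 2.91 at ZT16 (2.71 with genes at 0 at their bound) and 2.20 at ZT4. With median of ratios scaling 9 rose. Gzmb (chr14:56258838-56262260, minus strand), a protease that kills target cells, had 414 and 159 UMIs on day 3 in 48 and 31 T cells, against 0 and 5 on day 0 in 0 and 2 cells. It was at least 24.2-fold higher at ZT16 and log2 4.39 (3.27 to 6.17) higher at ZT4, with 102 and 120 CPM on day 1 between day 0 and day 3. Gzma had 325 and 190 UMIs on day 3, against 0 and 24 on day 0, the 24 in 1 cell. Nkg7, a granule membrane protein gene, had 1301 and 446 UMIs against 18 and 147, log2 3.62 (3.00 to 4.42) and 1.13 (0.87 to 1.42).

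Ifng (chr10:118441046-118445892, plus strand) encodes interferon gamma, the type II interferon of T and natural killer cells. It had 236 and 112 UMIs on day 3 in 43 and 21 T cells, against 5 and 8 on day 0 in 2 and 2 cells. The log2 fold was 2.91 (1.81 to 4.68) at ZT16 and 3.26 (2.32 to 4.59) at ZT4. Day 1 lay lower still, with 3 and 0 UMIs. At ZT4, 42 of the 112 UMIs were in 1 cell. Xcl1, a chemokine that attracts cross-presenting dendritic cells, had 172 and 258 UMIs on day 3, against 6 and 18 on day 0. Ccl5, a chemokine of effector cells, had 4296 and 1071 UMIs against 83 and 523, log2 3.17 (2.87 to 3.51) at ZT16 and 0.57 (0.42 to 0.72) at ZT4, and so did not pass at ZT4.

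These transcripts came from several kinds of T cells on day 3. Gzmb was in 30 of 56 T cells with Cd8, 9 of 45 with Cd4, 12 of 95 with Trdc and 27 of 97 with none of these. Ifng was in 15, 19, 10 and 20 of them. Nkg7 was in 55 of 56 T cells with Cd8 and in 13 of 95 with Trdc. At ZT4 Ifng was in 1 of 14 T cells with Cd8, against 14 of 42 at ZT16. These are few cells of 1 library each, and the difference was not tested. Natural killer cells share many of these genes. A UMI of Ncr1, Klrb1c, Klre1 or Klra8, genes of natural killer cells, was present in 20 and 14 T cells on day 3, of which 10 and 6 had Trac, against 0 and 2 T cells on day 0. Summed natural killer markers were at 531 and 597 CPM in T cells on day 3, against 28.5 and 167 CPM on day 0, and their part in the cytotoxic values was not tested.

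Gamma-delta genes stayed above day 0 on day 3. Trdc had 608 and 318 UMIs on day 3, against 2 and 8 on day 0, log2 5.42 (3.88 to 8.78) and 4.76 (3.85 to 6.07). Cd163l1 had 224 and 86 UMIs against 0 and 1, at least 13.1-fold higher at ZT16 and log2 5.39 (3.45 to 11.28) at ZT4. Blk had 116 and 48 UMIs against 0 and 0, at least 6.78-fold and at least 11.6-fold higher. Of 11 compared genes of the type 17 and gamma-delta list 6 rose, with medians of 1.69 and 3.29, and Ltb4r1 fell. Ltb4r1 marked the 29 day 0 barcodes above, and without the barcodes that have Il1rl1, Arg1, Il13 or Il5 its log2 fold was 1.09. Il17a had 52 and 7 UMIs on day 3, in 12 and 5 T cells, and 0 and 0 on day 0.

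Genes of circulating naive T cells were lower on day 3. Of 10 compared genes of that list 5 fell and 0 rose, with medians of -1.17 and -1.56. Ccr7 (chr11:99144196-99155077, minus strand), which guides naive T cells into lymph nodes, had 11 and 16 UMIs on day 3, against 33 and 169 on day 0. The log2 fold was -4.05 (-5.23 to -3.08) at ZT16 and -3.82 (-4.70 to -3.12) at ZT4. It was present in 7 of 174 and 8 of 120 T cells on day 3 and in 12 of 36 and 47 of 77 on day 0, with 0.55% and 0.805% of macrophage-marked barcodes on day 3. Thinned to 2000 UMIs the T cell shares were 1.16% and 4.42% on day 3, against 20% and 44.7% on day 0. Lef1 had 55 and 32 UMIs against 27 and 140, log2 -1.50 and -2.58. Satb1, a chromatin organiser, and Klf2, which maintains egress receptors, also fell.

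The fall was also present without the cells with Trdc and without the day 0 group. Among T cells without Trdc 7 of 10 genes of the naive list fell, and without the barcodes that have Il1rl1, Arg1, Il13 or Il5 it was 8 of 10. The list summed to 749 and 1381 CPM in T cells with Cd8 on day 3, against 5503 and 5336 CPM on day 0. In T cells with Trdc it summed to 2180 and 1252 CPM, against 1344 and 6278 CPM in the 2 and 2 such cells of day 0. The Trdc cells thus showed no fall at ZT16. The other named genes that fell were Arg1, Tnfsf8, Dnajb1, Tspan32, Gm12840, Ccdc184 and Inpp4b.

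**Figure D5:**
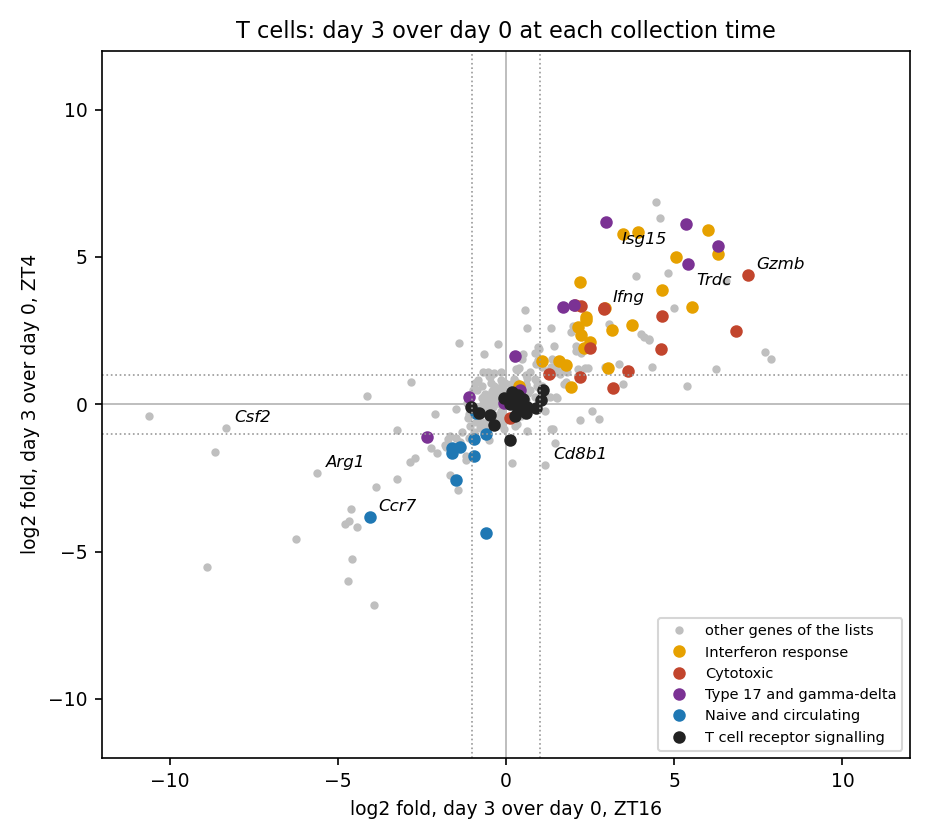
Log2 fold of day 3 over day 0 in summed T cells at ZT16 (horizontal) and ZT4 (vertical) for genes of the lists with at least 30 UMIs at each time; dotted lines mark 2-fold, each point is 1 gene, and a gene with 0 UMIs on 1 day is drawn at its fitted value, which is no bound. The interferon (21 of 23), cytotoxic (11 of 14) and gamma-delta list (6 of 11) genes that rose lie at the upper right. The naive genes that fell lie at the lower left and receptor signalling genes around 0, while Csf2 and Cd8b1 differ between the times.

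Receptor signalling genes showed 0 of 19 compared members up or down, beside 7.08% of all genes. So few genes cannot set the list apart by this count. Their medians were 0.27 and -0.08, beside 0.13 and 0.27 over all genes. Cell cycle genes were few but higher: 5 of 12 compared S phase genes and all 3 compared G2M genes (Top2a, Birc5 and Ube2c) rose. T cells with at least 2 UMIs of G2M genes numbered 19 of 174 and 11 of 120 on day 3, which is 10.9% (6.70 to 16.5) and 9.17% (4.67 to 15.8), against 1 of 36 and 1 of 77 on day 0. The G2M list summed to 1376 and 3291 CPM in T cells with Cd8 and to 62.1 and 309 CPM in those with Trdc. The largest day 3 T cells held 56430 and 64848 UMIs, and removing the highest doublet scores took out 8 and 3 day 3 T cells.

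Peptide loading genes rose in part. Tap1, Tapbp, Psmb8 and Psmb9 rose among 15 compared genes of MHC class I presentation, and 0 of 15 passed with median of ratios scaling. Bcl2a1b, a survival gene of the NF-kB programme, rose. Fos, Egr1 and Zfp36, immediate early genes that dissociation also induces, fell, and Fos was at 1652 and 1608 CPM in all other barcodes on day 3, against 4522 and 4491 CPM on day 0. The muscle fibre markers summed to 496 and 1398 CPM in T cells on day 3, against 8913 and 16744 CPM on day 0, and all 11 compared fell. MHC class II genes of dendritic cells, H2-Aa, H2-Ab1 and H2-Eb1, rose, and the part of other cells' RNA in them was not tested.

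The comparison of day 3 with day 1 asks which genes changed between the early and the later time after injury. It shares its libraries with the comparisons above and is no independent view of them. Of 3275 genes compared, 149 rose (4.55%) and 65 fell (1.98%) on day 3 relative to day 1, 6.53% in either direction. With median of ratios scaling 118 rose and 88 fell, and without the barcodes that have Il1rl1, Arg1, Il13 or Il5 it was 121 and 53.

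Isg15 had 851 and 557 UMIs on day 3, against 13 and 4 on day 1, log2 4.17 (3.44 to 5.14) and 5.07 (3.87 to 7.11). Of the interferon list 19 of 23 rose, with medians of 2.54 and 2.02. Ifng had 236 and 112 UMIs on day 3, against 3 and 0 on day 1, log2 4.27 (2.92 to 6.78) at ZT16 and at least 10.1-fold higher at ZT4. Of the cytotoxic list 6 of 15 compared genes rose (Gzma, Gzmb, Nkg7, Ctsw, Ifng and Xcl1) and Ccl3 fell. The list summed to 8147 and 4582 CPM on day 3, against 3896 and 3956 CPM on day 1. The day 1 sums were themselves above the 936 and 1942 CPM of day 0. In all other barcodes it was at 1175 and 997 CPM on day 3 and 1549 and 1781 CPM on day 1. On day 0 it was at 113 and 270 CPM there. The 6 genes that rose were higher in both day 3 libraries than in both day 1 libraries.

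Gamma-delta genes did not rise further. Of 12 compared genes of the type 17 and gamma-delta list 0 rose and Serpinb1a fell. Trdc was at 609 and 493 CPM on day 3, against 887 and 791 CPM on day 1, log2 -0.55 (-0.76 to -0.33) and -0.69 (-0.98 to -0.38), a difference under 2-fold whose counting intervals lay below 0 at both times. Cd163l1 was at log2 -0.24 and -0.86, and the median of the 12 was -0.27 and -0.67, beside 0.08 and 0.03 over all genes.

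Of the naive list 5 of 11 compared genes fell on day 3 relative to day 1. Ccr7 had 11 and 16 UMIs on day 3, against 37 and 20 on day 1, log2 -3.51 (-4.68 to -2.56) and -2.20 (-3.26 to -1.19), and Lef1, Satb1 and Actn1 were among the genes that fell with it. Cd69 had 351 and 186 UMIs on day 3, against 31 and 24 on day 1, log2 1.67 (1.16 to 2.27) and 1.04 (0.45 to 1.74), so this retention receptor was lowest on day 1 at both collection times. Cd40lg, a helper ligand, had 49 and 29 UMIs against 3 and 1, and Hspa1a and Hspa1b rose with it. All 6 compared neutrophil markers fell, and without members that had at least 10 UMIs of S100a8, S100a9 and MHC class II genes 18 genes fell in place of 65. Other named genes that rose were Isg20, Iigp1, Ifi47 and Ly6c2, and others that fell were Txnip, Cdkn1b, Apbb1ip, Tmem71, Ppp2r5a, AY036118 and G0s2.

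The collection times were compared within each day. Of 1761 genes compared between ZT16 and ZT4, 0 were higher (0%) and 0 were lower (0%) in all 3 pairs of libraries, with genes of at least 10 UMIs it was 3 and 0, and with doublets removed 0 and 1. A looser rule asked for 1.5-fold on at least 2 days, with no day the other way. It kept only genes at least as high in T cells as in all other barcodes, on all 3 days at the higher time. Ribosomal and mitochondrial genes were left out. By this rule 37 genes were higher and 11 lower at ZT16, which is no count over all 1761 genes. Selenot, a selenoprotein gene, had 36, 39 and 123 UMIs at ZT16 on days 0, 1 and 3, against 48, 9 and 44 at ZT4, log2 1.01, 1.35 and 0.84. Cd28, the costimulatory receptor of naive cells, was at log2 0.02, 1.07 and 0.71. Others higher were S100a11, Cyfip2, Capza1, Diaph1, Dock8 and AC149090.1.

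Among those lower at ZT16 by that rule were Ikzf2, Tcf7, Cd27, Cirbp, Pabpn1, Sars and Gm10076. Tcf7, a factor of naive and memory T cells, had 30, 43 and 89 UMIs at ZT16, against 132, 49 and 54 at ZT4, log2 -0.70, -0.90 and 0.09. Cirbp, a cold-inducible RNA-binding protein gene, was at log2 -0.04, -1.54 and -1.37. Clock genes were too sparse in T cells to compare: 1 of 19 reached 30 UMIs on all days. Nr1d1, a clock repressor, had 1, 2 and 7 UMIs at ZT16, against 10, 6 and 11 at ZT4, and Per2 had 0, 0 and 1 against 1, 0 and 0.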

How the data were processed

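Single-cell RNA libraries were made with the 10x Genomics 3' kit, per the labels' protocols. The authors deposited UMI counts, neither scaled nor corrected, of 32285 genes in 68724 called cells. Cell Ranger 1.0.0 and mm10 stand in the submitters' processing notes, whereas the file header names Cell Ranger 6.1.2. No source used here gives the annotation release. Gene positions are from GENCODE vM21 (GRCm38). The members, gene lists and tests were chosen with earlier results of these data known.

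Kept barcodes had a median of 3905 to 11310.5 UMIs per library, and T cells summed to 174399 to 999100 UMIs. Libraries shared 20 to 60 kept barcodes per pair (at most 0.534%), and 0 were T cells. Doublets were limited by the marker exclusions, and an alternative left out the highest scrublet scores, at 0.8% per 1000 barcodes, which removed 31 T cells. The lists were 42.

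UMIs were summed over T cells per library (Python 3.11.15, numpy 2.4.6, scipy 1.17.1, pandas 2.3.3, scanpy 1.11.5). For log2 folds 0.5 UMI was added to both counts, with exact 95% intervals conditional on the sum of 2 Poisson counts. Shares have Clopper-Pearson intervals. A gene with 0 UMIs in a library is given as a bound against 3 UMIs in that library, likewise the upper limit of a share of 0. Calls are by size alone. The genes named were, for each day comparison, those called whose CPM in T cells was at least that of all other barcodes in the higher group, without ribosomal and mitochondrial genes, the 12 in each direction whose intervals lay farthest from 0. For ZT16 against ZT4 they were 8 in each direction at 1.5-fold on at least 2 days. Members of the lists that a sentence describes were named as well. A few genes that these rules name are not reported here.

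Alternatives changed the Cd3 minimum (3), the UMI minimum (1000), the mitochondrial limit (5%), doublets, depth (each barcode thinned to 1000 UMIs before the rule), the denominator, the gene minimum (10 and 100 UMIs), the added count (1), the scaling, the weight of each cell, the Trdc cells, free RNA and the collection time. Removal of barcodes with Il1rl1, Arg1, Il13 or Il5, removal of barcodes with at least 10 myeloid UMIs, and thinning of T cells to 2000 UMIs were chosen after seeing the data. The methods were tested on simulated data.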

Additional observations from a re-analysis of the deposited data

Results flagged for a closer look

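These results stand out because the day difference ran at least 2-fold one way at ZT16 and at least 2-fold the other way at ZT4. The difference between the collection times was not tested, since each group is 1 library. Over all genes such opposite pairs were 8 of 1867 (0.428%) for day 1 over day 0, 9 of 3689 (0.244%) for day 3 over day 0 and 3 of 3275 (0.0916%) for day 3 over day 1.

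For day 1 over day 0, the MHC class II genes of antigen-presenting cells were opposite: H2-Aa was at log2 7.31 at ZT16 and -6.63 at ZT4, H2-Ab1 at 5.59 and -4.34, H2-Eb1 at 6.89 and -4.36, and Cd74, their invariant chain, at 4.79 and -4.51. H2-Aa had 129 UMIs at ZT16 on day 1, against 0 on day 0, and 0 at ZT4 on day 1, against 132 on day 0. Of the 129 UMIs 127 were in 1 barcode, and of the 132 UMIs 130 were in 1 barcode. Each direction of H2-Aa thus rests on 1 barcode that passed the T cell rule. Whether such a barcode holds only a T cell was not tested. Atf3, a stress-induced transcription factor, was at log2 -1.45 at ZT16 and 1.95 at ZT4.

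For day 3 over day 0, the coreceptor genes of CD8+ T cells were opposite, Cd8b1 at log2 1.17 at ZT16 and -2.07 at ZT4 and Cd8a at 1.44 and -1.31. Cd8b1 had 288 and 62 UMIs on day 3 (ZT16 and ZT4), against 22 and 190 on day 0, in 42 and 15 T cells against 4 and 31. Il2ra, the high-affinity interleukin 2 receptor chain of regulatory and activated T cells, was at log2 -1.41 at ZT16 and 2.08 at ZT4, with 22 and 49 UMIs on day 3, against 10 and 8 on day 0. For day 3 over day 1, Areg, an epidermal growth factor family ligand made by regulatory T cells and other lymphocytes, was at log2 -2.16 at ZT16 and 1.37 at ZT4, with 21 and 71 UMIs on day 3, against 27 and 7 on day 1.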

How the results depend on the processing

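No paired analysis was possible because no result comes from a test, each group being 1 library. Days were compared within each collection time. A fit of day plus collection time, which would take the 2 times as replicates, was not run. With few T cells (36 to 174 per library) and low counts, most counts of genes move with the gene minimum and the depth.

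Shares of kept barcodes, thinned to 1000 UMIs before the rule, were 0.18% on day 0 at ZT16, 0.42% and 0.19% on day 1 (ZT16 and ZT4) and 1.72% and 0.92% on day 3. Among Ptprc barcodes day 0 was at 3.36% and 4.88%. Without barcodes that have Il1rl1, Arg1, Il13 or Il5, chosen after seeing the data, the day 0 ZT16 share was 0.18%. The day 0 Trdc share was 0% at ZT16 thinned to 1000 or 2000 UMIs or without those barcodes, and 0% at ZT4 with doublets removed.

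For day 1 over day 0, genes higher numbered 56 with at least 3 Cd3 UMIs, 47 with doublets removed, 4 thinned to 1000 UMIs, 281 and 19 with gene minimums of 10 and 100 UMIs, 41 without Trdc cells, 50 with free RNA subtracted, 38 without barcodes with 10 or more myeloid UMIs (chosen after seeing the data), 212 at ZT16 alone and 303 at ZT4 alone. Genes lower numbered 6 thinned, 104 and 17 by gene minimum, 110 at ZT16 and 164 at ZT4.
For day 3 over day 0, genes higher numbered 29 thinned, 445 and 76 by gene minimum, 134 with median of ratios scaling, 676 at ZT16 and 528 at ZT4. Genes lower numbered 8, 137, 22, 80, 200 and 153 in the same order.
For day 3 over day 1, genes higher numbered 19 thinned, 314 and 59 by gene minimum, 419 at ZT16 and 477 at ZT4. Genes lower numbered 35 with at least 3 Cd3 UMIs, 20 with doublets removed, 3 thinned, 212 and 14 by gene minimum, 32 with free RNA subtracted, 18 without the myeloid barcodes, 228 at ZT16 and 261 at ZT4. ZT16 over ZT4 gave 3 genes higher at a minimum of 10 UMIs and 1 lower with doublets removed. Thinning leaves fewer UMIs, so fewer genes reach the minimum.

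A sign turned in 5 values. Id2 on day 1 over day 0 was at log2 0.14, and Ltb4r1 on day 3 over day 0 at 1.09, without barcodes that have Il1rl1, Arg1, Il13 or Il5. For the type 17 and gamma-delta list on day 1 over day 0, the median was -0.0042 at a minimum of 100 UMIs. It was -0.17 without Trdc cells, and -0.27 without Trdc cells on day 3 over day 0. Trdc itself is 0 there by the choice of cells. Of 1633 values of named genes, list medians and shares of T cell groups, these 5 among them, 1559 moved by less than the limits set and 69 moved further.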
